A study of Mus musculus with 2 samples.

Results

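The transcripts followed here are those of Cxcl12, Cxcr4 and Ackr3, a chemokine and its 2 receptors. They are 3 of 28380 genes in the deposited tables. The genes were chosen by name, because they form a ligand and receptor system of the bone marrow, and not by a threshold on their values. Earlier results of these data were known when they were chosen. Their levels are described over endothelial cells (ECs), stromal cells, osteocytes and haematopoietic cells of mouse long bone, and over 2 libraries.

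Both libraries came from femur and tibia of C57BL/6 mice at postnatal day 30 (P30), both sexes together, and all mice had received tamoxifen. The Control library was made from mice with the genotype Dach1OE +/f, which carry a conditional Dach1 transgene but, by this label, no Cre. The Dach1OE library was made from Apj CreERT2 - Dach1OE +/f mice, in which the Apj (Aplnr) promoter drives a tamoxifen-dependent Cre in capillary ECs that express Apj. Each library pooled 2 mice, and cells that carried haematopoietic lineage antigens, CD45 or CD117 had been removed with magnetic beads, so the haematopoietic cells described below are those that escaped this depletion. RNA of single cells was counted on the BD Rhapsody platform by unique molecular identifiers (UMIs), tags that let copies of 1 molecule be counted once. Levels are in CPM, which is the UMIs of a gene per 1000000 UMIs of the same cells.

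CXCL12 is a secreted chemokine that holds haematopoietic stem and progenitor cells in the marrow and guides vessel growth. CXCR4 is its signalling receptor, which couples to inhibitory G proteins and is carried by many blood cells and by angiogenic endothelium. ACKR3 binds CXCL12 too, but it signals weakly or not at all through G proteins, recruits arrestins and removes the ligand from the extracellular space. In marrow, perivascular stromal cells of the diaphysis are the best known source of CXCL12, and arterial endothelium is another.

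None of the 3 genes overlaps another gene in the GENCODE vM21 annotation of GRCm38. Cxcl12 (ENSMUSG00000061353.11) lies on the plus strand at chr6:117168535-117181367. Cxcr4 (ENSMUSG00000045382.6) lies on the minus strand at chr1:128588199-128592293, and Ackr3 (ENSMUSG00000044337.5) on the plus strand at chr1:90203980-90216751. All 3 promoter windows are shown because the 3 genes were higher together in the ECs of Dach1OE while their levels across cell types differed. Each window runs from 250 bases before to 50 bases after the annotated start, is taken from RefSeq on GRCm38.p6 and is written 5′ to 3′ along the strand of its gene, with matches to the searched letters in capitals. For Cxcr4 the start that the window implies lies a few bases from the gene end given above. The letters searched on both strands were the GC box GGGCGG, which reads as CCGCCC when it lies on the other strand, and the core of the hypoxia response element, since Cxcl12 and Cxcr4 are known targets of hypoxia-inducible factors. This core was searched in both of its common forms. The first form was ACGTG. The second form was GCGTG. The TATA box, spelled TATAAA, was searched on the strand of the gene alone. The windows are chr6:117168285-117168584 for Cxcl12, chr1:128592250-128592549 for Cxcr4 and chr1:90203730-90204029 for Ackr3.
Cxcl12: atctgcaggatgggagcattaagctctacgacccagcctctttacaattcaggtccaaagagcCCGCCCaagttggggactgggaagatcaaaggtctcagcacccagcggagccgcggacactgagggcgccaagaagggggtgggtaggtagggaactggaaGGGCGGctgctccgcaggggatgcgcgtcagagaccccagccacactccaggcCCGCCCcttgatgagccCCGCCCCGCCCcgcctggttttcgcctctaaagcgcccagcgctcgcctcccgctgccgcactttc
Cxcr4: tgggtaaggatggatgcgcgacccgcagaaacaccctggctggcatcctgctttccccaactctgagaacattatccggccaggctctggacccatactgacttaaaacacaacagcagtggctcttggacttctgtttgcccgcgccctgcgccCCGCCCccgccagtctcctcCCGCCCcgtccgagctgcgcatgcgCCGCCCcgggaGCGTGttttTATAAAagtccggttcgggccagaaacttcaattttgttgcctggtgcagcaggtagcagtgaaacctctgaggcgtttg
Ackr3: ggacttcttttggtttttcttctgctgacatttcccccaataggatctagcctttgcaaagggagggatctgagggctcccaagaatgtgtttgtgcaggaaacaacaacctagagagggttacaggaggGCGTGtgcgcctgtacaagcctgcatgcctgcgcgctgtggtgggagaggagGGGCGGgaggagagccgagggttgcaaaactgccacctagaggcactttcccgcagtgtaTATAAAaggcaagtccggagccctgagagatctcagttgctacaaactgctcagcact

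The Cxcl12 window held 5 matches to the GC box, including 2 that overlap, and none to the other letters. The Cxcr4 window held 3 GC boxes, 1 GCGTG and 1 TATAAA, and the Ackr3 window held 1 of each of these. ACGTG was in none of them. Among all 32851 promoter windows of the same length, GGGCGG was found in 35.7%, GCGTG in 32.4%, ACGTG in 19.6% and TATAAA in 8.32%, and a match is a description of letters and not of binding.

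A filter on quality (500 to 6000 genes, under 25% mitochondrial UMIs) left 26466 of 28720 barcodes in Control and 29317 of 32028 in Dach1OE, with a median of 3793.5 and 4055 UMIs. Each cell was given a type by a gate on marker genes that did not include the 3 members, which yielded 8662 Control and 8748 Dach1OE ECs and 6075 and 5060 bone mesenchymal stromal cells (BMSCs). A type name below means only that the cells passed its gate. No type was given to 10.9% of Control and 12.4% of Dach1OE cells. Barcodes of 879 kept cells were found in both libraries, and leaving them out kept all 5 main ratios between the libraries inside their intervals.

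Sinusoidal, metaphyseal, arterial, remodelling and proliferating ECs follow the names of the study. Tip-like, Scgb3a1-positive and lymphatic ECs are further gates that the study does not name. The marker list of Scgb3a1-positive ECs was known from earlier results of these data. Sinusoidal bone marrow ECs (bmECs, type L) held 48.2% of Control and 12.2% of Dach1OE ECs, and arterial ECs (aECs) held 4.10% and 12.1%. Metaphyseal ECs (mpECs, type H) held 19.4% and 19.5%, and remodelling ECs (rECs, type R) 6.10% and 7.22%. Tip-like ECs and proliferating ECs (pECs) were smaller groups, and ECs positive for Scgb3a1 numbered 39 in Control and 1850 in Dach1OE. Genes kept out of the gate as checks were read in Control: the lymphatic and sinusoidal receptor Flt4 stood at 894 CPM in bmECs and 175 in aECs, and the arterial transcription factor Sox17 at 74.9 in bmECs and 498 in aECs. The check gene of rECs, Edn1, stood at 199 in rECs (176 to 225) and 181 in aECs (158 to 208), so it did not separate these subtypes. Dach1, the gene that the transgene expresses, checked the labels. It stood at 3.25 CPM in Control and 77.8 in Dach1OE bmECs and at 7.05 and 227 in aECs. In osteoblasts (OBs) it stood at 3.68 and 3.65.

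All levels were summed over the cells of a type within a library and carry an exact Poisson 95% interval. Differences are log2 ratios with exact binomial 95% intervals. There was 1 library per group and therefore no test between Control and Dach1OE, and every interval covers counting error only, not the spread between mice.

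Cxcl12 was by far highest in diaphyseal mesenchymal stromal cells (dpMSCs), the perivascular, leptin receptor-positive cells of the marrow shaft. The level in dpMSCs was 41950 CPM in Control (41798 to 42103, 2393 cells) and 38721 in Dach1OE (38487 to 38956, 915 cells). After each cell was thinned to 1000 UMIs, 99.9% of Control and 100% of Dach1OE dpMSCs still held a Cxcl12 UMI, which means that nearly every cell of this type carried the transcript.

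Lower levels were found in the other stromal cells. Metaphyseal mesenchymal stromal cells (mpMSCs) gated on Wif1 and Slitrk6 had 9545 CPM of Cxcl12 in Control and 6895 in Dach1OE. Those gated on Aspn and Omd had 3351 and 2951. Septoclasts (SCs), perivascular cells that resorb cartilage at the growth plate, had 1867 and 1519. Proliferating BMSCs, at 5870 and 1948, stood between both sorts of mpMSCs in Control and between the Aspn and Omd sort and SCs in Dach1OE. Intervals of these types did not overlap within either library. In the bone-forming cells Cxcl12 was low, at 184 and 156 CPM in OBs and 277 and 81.0 in osteocytes (OCYs), the cells embedded in bone matrix that were marked by Dmp1 (3144 and 2840 CPM).

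Among ECs the order of Cxcl12 was led by arterial cells. In Control, aECs stood at 1584 CPM (1512 to 1659), rECs at 351 (319 to 385) and tip-like ECs at 236 (200 to 276). The pECs followed at 211, mpECs at 165 and bmECs at 120. The aEC level was 13.2 times the bmEC level (12.4 to 14.1) and 4.51 times the rEC level (4.07 to 5.01), while rECs were not separated from fibroblasts, nor tip-like ECs from pECs, by their intervals. In Dach1OE the order at the top was the same and the steps were set apart by their intervals, with 2436 in aECs (2386 to 2486), 1117 in rECs (1068 to 1168) and 574 in tip-like ECs (531 to 620).

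**Figure D1:**
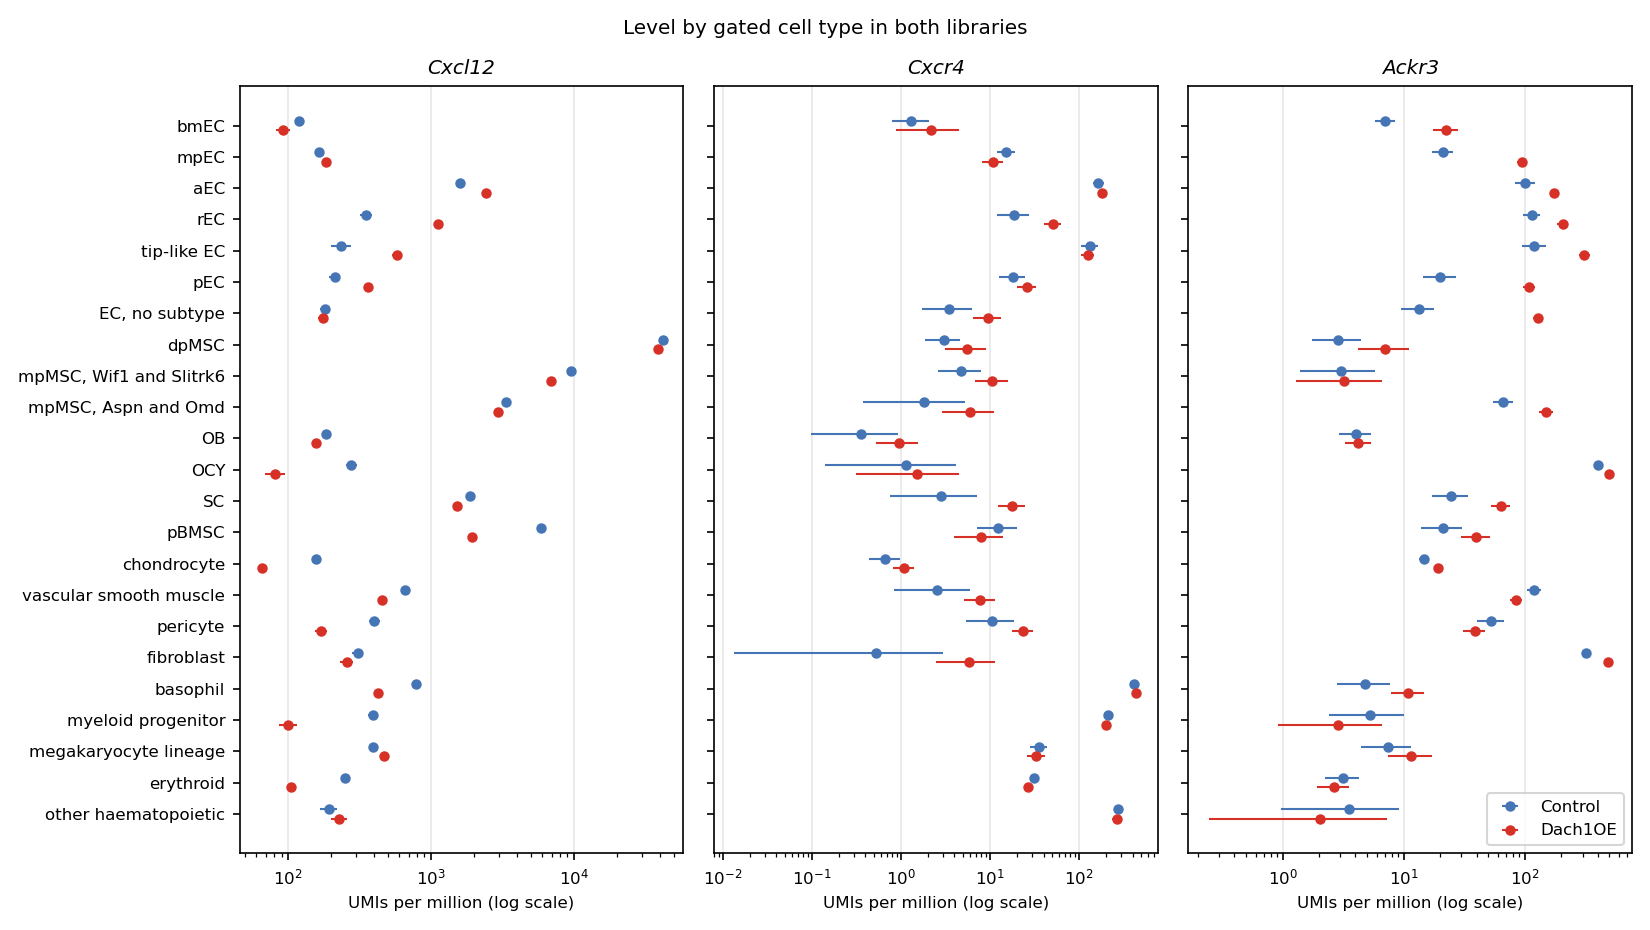
Level of Cxcl12, Cxcr4 and Ackr3 in each gated cell type with at least 50 cells in both libraries (rows), in CPM on a log axis. Bars are exact Poisson 95% intervals, and blue points are Control and red points Dach1OE, 1 library each. Lymphatic and Scgb3a1-positive ECs are not drawn. Cxcl12 peaks in dpMSCs (41950 and 38721), Cxcr4 in basophils (412 and 433) and Ackr3 in OCYs of Control (401), while OCYs and fibroblasts of Dach1OE (492 and 483) overlap.

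Since Cxcl12 was so abundant in dpMSCs, its level elsewhere was set beside that of other dpMSC transcripts. The measure assumes that RNA released by 1 kind of cell keeps the ratio of its genes wherever it is counted, which was not tested. The Cxcl12 UMIs in each type were divided by the UMIs of 5 further dpMSC genes (Adipoq, Hp, Cxcl14, Kng1 and Kng2). The result was compared with the same ratio in dpMSCs, which was 3.57 in Control and 3.44 in Dach1OE. Under this assumption a multiple of 1 is the value of dpMSC RNA. These 5 genes also served in the gate, which took dpMSCs for high values and kept ECs with few of them, which can raise the multiples of ECs. A second reference of 6 dpMSC genes that no gate used (Il1rn, Grem1, Cbln1, Dpep1, Ackr4 and Il7), added after the data were seen, had ratios of 13.7 and 12.9 in dpMSCs. These 6 genes were picked for low levels in ECs, haematopoietic, chondrocyte and mural cells beside dpMSCs. Their choice can therefore raise the multiples of those cells too. With the 5 genes, the multiple in bmECs was 1.07 in Control and 0.99 in Dach1OE. It was 0.91 and 1.15 in OBs, 0.62 and 0.49 in OCYs, 0.73 and 0.49 in chondrocytes and 0.99 and 1.10 in erythroid cells. The ratio in bmECs, OCYs, chondrocytes and erythroid cells was not above that of dpMSCs by its interval in either library, while in Dach1OE OBs it was slightly above, at 3.96 (3.63 to 4.33). The low Cxcl12 level of bmECs and erythroid cells was thus not told apart by this ratio from the level that dpMSC RNA gives. That does not exclude a low level of their own. With the second reference the multiples were 0.86 and 0.96 in bmECs and 0.85 and 0.80 in erythroid cells, the latter below 1 by their intervals. Where the multiple was well below 1, as in OCYs and chondrocytes, the 5 genes cannot, under the same assumption, come from dpMSC RNA alone. There the measure does not settle whether those cells express Cxcl12. In stroma the multiple was 1.48 and 1.69 in mpMSCs gated on Wif1 and Slitrk6 and 1.51 and 1.56 in SCs. It was 1.08 and 1.21 in mpMSCs gated on Aspn and Omd, where 3113 of 3351 and 2444 of 2951 CPM were at the dpMSC ratio. Proliferating BMSCs had 1.04 in both libraries, with 5626 of 5870 and 1871 of 1948 CPM at that ratio. With the second reference the multiples of mpMSCs, SCs and proliferating BMSCs lay between 0.28 and 0.86 and those of OBs at 0.10, so that in stroma the measure turned with the choice of genes and nothing is read from it.

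Arterial and remodelling ECs lay above the dpMSC ratio by their intervals in both libraries with either reference. The way each reference was chosen can raise the multiples of ECs, so the 2 are not independent checks. The multiple in aECs was 5.72 in Control and 77.1 in Dach1OE, and 5.47 and 21.1 with the second reference. In rECs it was 3.35 and 12.2, and 1.75 (1.10 to 2.93) and 6.47 with the second reference. Tip-like ECs had 1.99 and 6.83, pECs 1.98 and 3.93 and mpECs 1.44 and 4.29. With the second reference these 3 subtypes were above in Dach1OE (4.63, 3.66 and 2.60), but in Control their values of 1.42, 1.43 and 1.18 had intervals that included 1. ECs of no subtype had 1.32 and 2.02, but 0.62 and 1.39 with the second reference. Lymphatic ECs (1.40 and 1.63) and Scgb3a1-positive ECs of Control (0.33, from 7 Cxcl12 UMIs) were not above, while Scgb3a1-positive ECs of Dach1OE had 2.14, or 1.21 with the second reference (an interval that included 1). Subtracting the level that the ratio to the 5 genes gives left 1307 and 2404 CPM in aECs, 246 and 1025 in rECs and 117 and 490 in tip-like ECs, against 8.11 and −0.72 in bmECs. The second reference left 1295 and 2320 in aECs, 149.9 and 945 in rECs and 70.2 and 449.9 in tip-like ECs. The large multiple of aECs in Dach1OE rests on 34 UMIs of the 5 genes, and Lepr was kept out of the reference because rECs held it (359 and 74.3 CPM). The dpMSC gate genes Lpl, Ebf3, Gdpd2 and Gas6 were not in the reference either. Leaving out dpMSC genes that ECs hold raises the multiples of ECs.

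**Figure D2:**
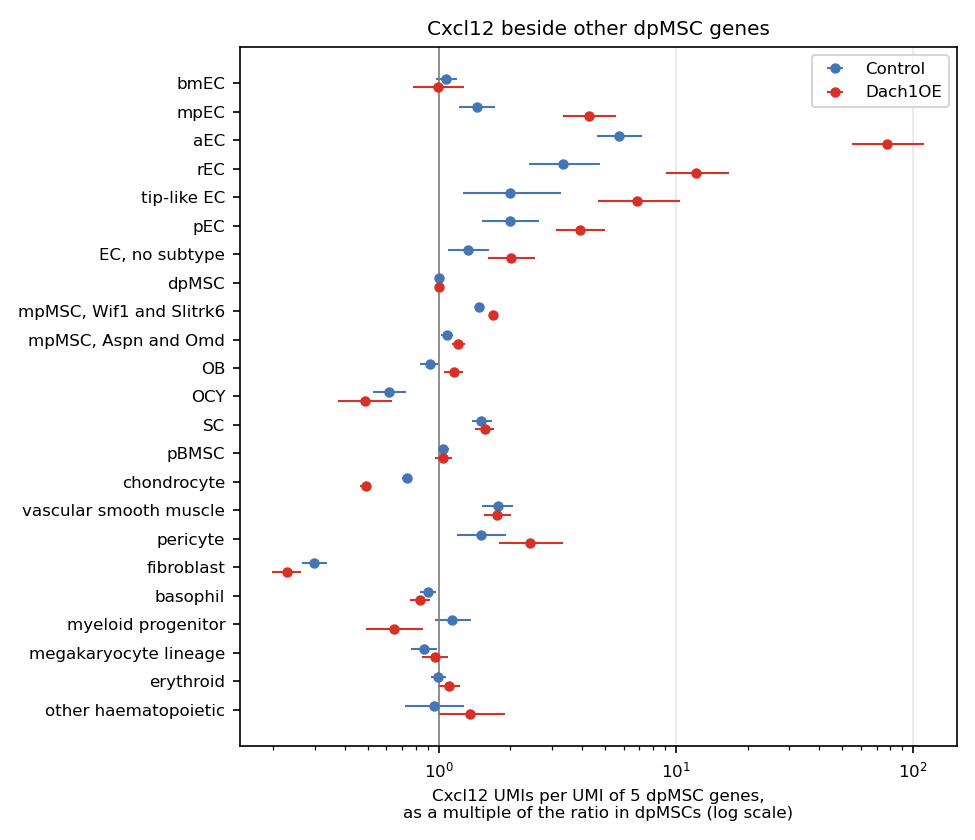
Cxcl12 UMIs per UMI of 5 dpMSC genes in each gated cell type with at least 50 cells in both libraries (rows). Values are multiples of the same ratio in dpMSCs of that library, on a log axis with 95% intervals. Blue is Control and red Dach1OE, and the second reference is not drawn. The bmECs, OBs and erythroid cells lie near 1, whereas aECs lie at 5.72 and 77.1 and rECs at 3.35 and 12.2.

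Shares of cells were highest in the same subtypes. With cells thinned to 1000 UMIs, 60.8% of Control aECs (211 of 347) and 71.7% of Dach1OE aECs (741 of 1034) held Cxcl12, or 75.8% and 86.5% before thinning. For rECs the thinned shares were 23.6% and 36.1% (38.1% and 48.4% before thinning), and for bmECs 10.1% and 6.82% (25.7% and 16.2%). Erythroid cells, which should lack the transcript, had thinned shares of 6.71% and 3.75% (23.4% and 14.6%), below those of bmECs. Their Cxcl12 levels of 248 and 105 CPM were nevertheless above the bmEC levels of 120 and 92.0. Median depths were 6877 and 7867 UMIs in erythroid cells, 2867 and 2573 in bmECs and 2781 and 2921 in aECs. Barcodes with too few genes for the filter had Cxcl12 at 612 CPM in Control and 389 in Dach1OE.

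Mural cells depended on the reference. Vascular smooth muscle cells had a multiple of 1.76 in both libraries and pericytes 1.51 and 2.43, but 1.24 and 0.997 and 1.04 and 1.24 with the second reference, whose intervals included 1, with Cxcl12 levels of 661 and 456 and of 402 and 170 CPM. A few cells set the level in some small groups: 1 cell held 59.2% of the Cxcl12 UMIs of Dach1OE fibroblasts and 48.2% of those of Control myeloid progenitors.

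Cxcr4 had a different distribution, led by haematopoietic cells. Basophils, marked by Mcpt8 (17189 and 15970 CPM), had the highest Cxcr4 level, 412 CPM in Control (392 to 434) and 433 in Dach1OE (413 to 454). Myeloid progenitors had 213 and 203, and cells of the megakaryocyte lineage 35.2 and 33.3. These levels were close between the libraries: over all haematopoietic cells Cxcr4 differed by −0.08 on the log2 scale (−0.16 to −0.0022), and in basophils by 0.07 (−0.03 to 0.17).

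In the vessel wall Cxcr4 was highest in arterial and tip-like cells. The aECs had 166 CPM in Control (143 to 191) and 182 in Dach1OE (168 to 196), and tip-like ECs had 133 and 126. The bmECs had 1.31 and 2.17, from 19 and 7 UMIs. The aEC level was thus 126 times that of bmECs in Control (78.5 to 214), while aECs and tip-like ECs were not told apart by their intervals in Control (ratio 1.25, 0.96 to 1.62) but were in Dach1OE (1.45, 1.21 to 1.74). Metaphyseal ECs had 15.1 and 10.7 and rECs 18.5 and 51.1 CPM, while pECs had 18.1 and 25.9 and pericytes 10.5 and 23.7. Over stroma Cxcr4 ran from 0.36 and 0.94 in OBs to 12.4 in proliferating BMSCs of Control and 17.9 in SCs of Dach1OE, with 3.03 and 5.55 in dpMSCs. Chondrocytes had 0.67 and 1.07.

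Thinned to 1000 UMIs, 33.0% of Control and 38.4% of Dach1OE basophils held Cxcr4, and 11.2% and 12.6% of aECs did (74.9% and 74.1%, and 25.9% and 34.2%, before thinning). Chondrocytes, taken as a type without the receptor, had thinned shares of 0.06% in both libraries at median depths of 10695 and 10100.5 UMIs. Unlike Cxcl12, Cxcr4 was thus hardly counted in cells without it.

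Ackr3 was highest in osteocytes of Control, and in osteocytes and fibroblasts of Dach1OE. OCYs had 401 CPM in Control (372 to 432, 262 cells) and 492 in Dach1OE (461 to 524, 299 cells), while OBs had 4.04 and 4.21. The OCY level was 99.4 times the OB level in Control (73.5 to 138) and 117 times in Dach1OE (91.1 to 152). The mpMSCs gated on Aspn and Omd had 66.2 and 150 CPM. In the same OCYs, Cxcr4 was counted with 2 and 3 UMIs in all. Thinned shares of OCYs with Ackr3 were 25.3% and 34.4% (55.7% and 60.2% before thinning), against 0.24% and 0.30% of erythroid cells.

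Fibroblasts had 323 CPM of Ackr3 in Control (298 to 349) and 483 in Dach1OE (447 to 521), which overlaps the OCY interval, and in Y-only cells of Dach1OE fibroblasts stood above OCYs (629 and 382). Lymphatic ECs had 196 and 203. Among blood vessels of Control, tip-like ECs had 119, rECs 114 and aECs 100 CPM, with overlapping intervals. The aECs of Control did not differ from rECs beyond counting error (ratio 0.88, 0.68 to 1.13). Metaphyseal ECs had 21.0 and bmECs 7.05, so rECs exceeded bmECs 16.2-fold (12.5 to 21.1) and mpECs 5.44-fold (4.2 to 7.06). In Dach1OE, tip-like ECs had 311 CPM (280 to 345), above rECs with 206 (185 to 229) and aECs with 175 (162 to 189). There aECs were below rECs by their ratio (0.85, 0.74 to 0.97). The rEC level of Dach1OE was 9.24 times that of bmECs (7.15 to 12.1) and 2.19 times that of mpECs (1.91 to 2.51). Vascular smooth muscle had 120 and 85.1. The cells richest in the ligand were among the poorest in this receptor, with 2.88 and 7.03 CPM of Ackr3 in dpMSCs.

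All 3 genes were higher in the ECs of Dach1OE. Over all ECs, Cxcl12 stood at 212 CPM in Control (6007 UMIs) and 554 in Dach1OE (15398 UMIs), a log2 ratio of 1.38 (1.34 to 1.43). Of these levels, 91.9 and 486 CPM lay above the dpMSC ratio, or 34.3 and 440 with the second reference. Cxcr4 stood at 15.7 and 39.8 (444 and 1107 UMIs), a log2 ratio of 1.34 (1.18 to 1.50), and Ackr3 at 25.7 and 122 (727 and 3386 UMIs), a log2 ratio of 2.24 (2.13 to 2.36). Of 12288 genes with enough UMIs in ECs, 347 (2.82%) were at least 2-fold higher in Dach1OE and 212 (1.73%) at least 2-fold lower. All 3 members were among the 347 higher genes. They were chosen with earlier results of these data known, so this is a description and not a test. The median log2 ratio over all EC genes was 0.04.

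Cells of each sex gave the same direction for these sums. Cells with Xist and no Y-linked UMI, and cells with Y-linked UMIs and no Xist, are taken to come from 1 mouse each per library. The 10586 Control and 12527 Dach1OE kept cells with neither or both are in neither set. A ratio over all cells can therefore lie outside those of both sets. The log2 ratio in the first and the second set was 1.16 and 1.70 for Cxcl12, 1.08 and 1.77 for Cxcr4 and 1.97 and 2.69 for Ackr3. The 2 mouse pairs differed in size more than counting error allows, so the size of each ratio is uncertain.

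Within subtypes the 3 genes parted. Cxcl12 was higher in Dach1OE than in Control rECs by a log2 ratio of 1.67 (1.52 to 1.82), with 1.71 in Xist-only and 1.97 in Y-only cells. The ratio was 1.28 in tip-like ECs (1.03 to 1.55), 0.78 in pECs (0.62 to 0.95) and 0.62 in aECs (0.55 to 0.69). In tip-like ECs the sex sets had 1.71 and 2.32, both above the ratio over all cells. In mpECs the Cxcl12 ratio was 0.15 (0.02 to 0.29), with −0.14 and 0.72 in the sex sets. It was 0.0060 (−0.25 to 0.26) under a wider margin of the gate, 0.32 (0.17 to 0.46) without doublets and 0.55 (0.39 to 0.70) in cells with no UMI of the 5 dpMSC genes, and 50.7 and 141 CPM lay above the dpMSC ratio (25.4 and 113 with the second reference). In bmECs, where Cxcl12 stood near the dpMSC ratio, it was −0.38 (−0.56 to −0.20), but 0.01 (−0.32 to 0.33) under a gate with a wider margin, added after the data were seen.

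Cells in the rEC gate differed between the libraries in genes other than the members. The arterial genes Hey1 (11.6 and 80.7 CPM) and Sox17 (98.9 and 221) were higher in Dach1OE rECs, and the endothelin gene Edn1 (199 and 107) and Lepr were lower. The arterial kinase Bmx was counted with 13 and 6 UMIs, and the gate gene C1qtnf9 had 294 and 198, or 465 (414 to 520) and 406 (357 to 459) under the wider margin. With that margin, the Cxcl12 ratio in rECs was 2.29 (2.06 to 2.53) while Hey1 was still at 6.05 and 60.7. Other cells in the gate and other levels in the same cells cannot be told apart here, and their part in the Cxcl12 ratio of rECs was not tested. In aECs, Hey1 (169 and 390) and Sox17 (498 and 686) were higher and Bmx (115 and 32.9) was lower in Dach1OE. Edn1, the check gene of rECs, stood at 181 CPM in aECs of both libraries. In Dach1OE the aEC level was above that of rECs by the intervals (167 to 195 against 92.0 to 123).

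Cxcr4 was close between the libraries in the subtypes that express it most, as far as all cells of a subtype were summed. The log2 ratio was 0.13 in aECs (−0.10 to 0.38), with 0.38 in Xist-only and −0.29 in Y-only cells, and −0.08 in tip-like ECs (−0.47 to 0.32), where Xist-only cells had −1.43 and Y-only cells 1.61. With the wider margin the aEC value turned to −0.20 (−0.47 to 0.08). In rECs the ratio was 1.46 (0.80 to 2.18), from 24 and 88 UMIs, with 0.80 in Xist-only and 3.58 in Y-only cells, the latter from 2 and 42 UMIs.

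Ackr3, in contrast, was higher in Dach1OE in each of the 7 blood EC subtypes with at least 50 cells in both libraries, ECs of no subtype included, and in both sex sets of each. The log2 ratio was 2.44 in pECs (1.97 to 2.95), 2.16 in mpECs (1.85 to 2.48), 1.66 in bmECs (1.21 to 2.11) and 1.38 in tip-like ECs (1.03 to 1.75). It was 0.85 in rECs (0.57 to 1.14) and 0.80 in aECs (0.51 to 1.10). Under the gate with a wider margin the ratio was 1.39 in mpECs (0.91 to 1.90), 1.22 in aECs (0.78 to 1.68) and 0.54 in rECs (0.15 to 0.94). ECs of no subtype had 13.3 CPM in Control and 129 in Dach1OE, a ratio of 3.28 (2.82 to 3.77), and had Dach1 at 4.42 and 223. Lymphatic ECs had 196 and 203 CPM, a ratio of 0.05 (−0.54 to 0.61), with −1.43 in Xist-only and 1.45 in Y-only cells.

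**Figure D3:**
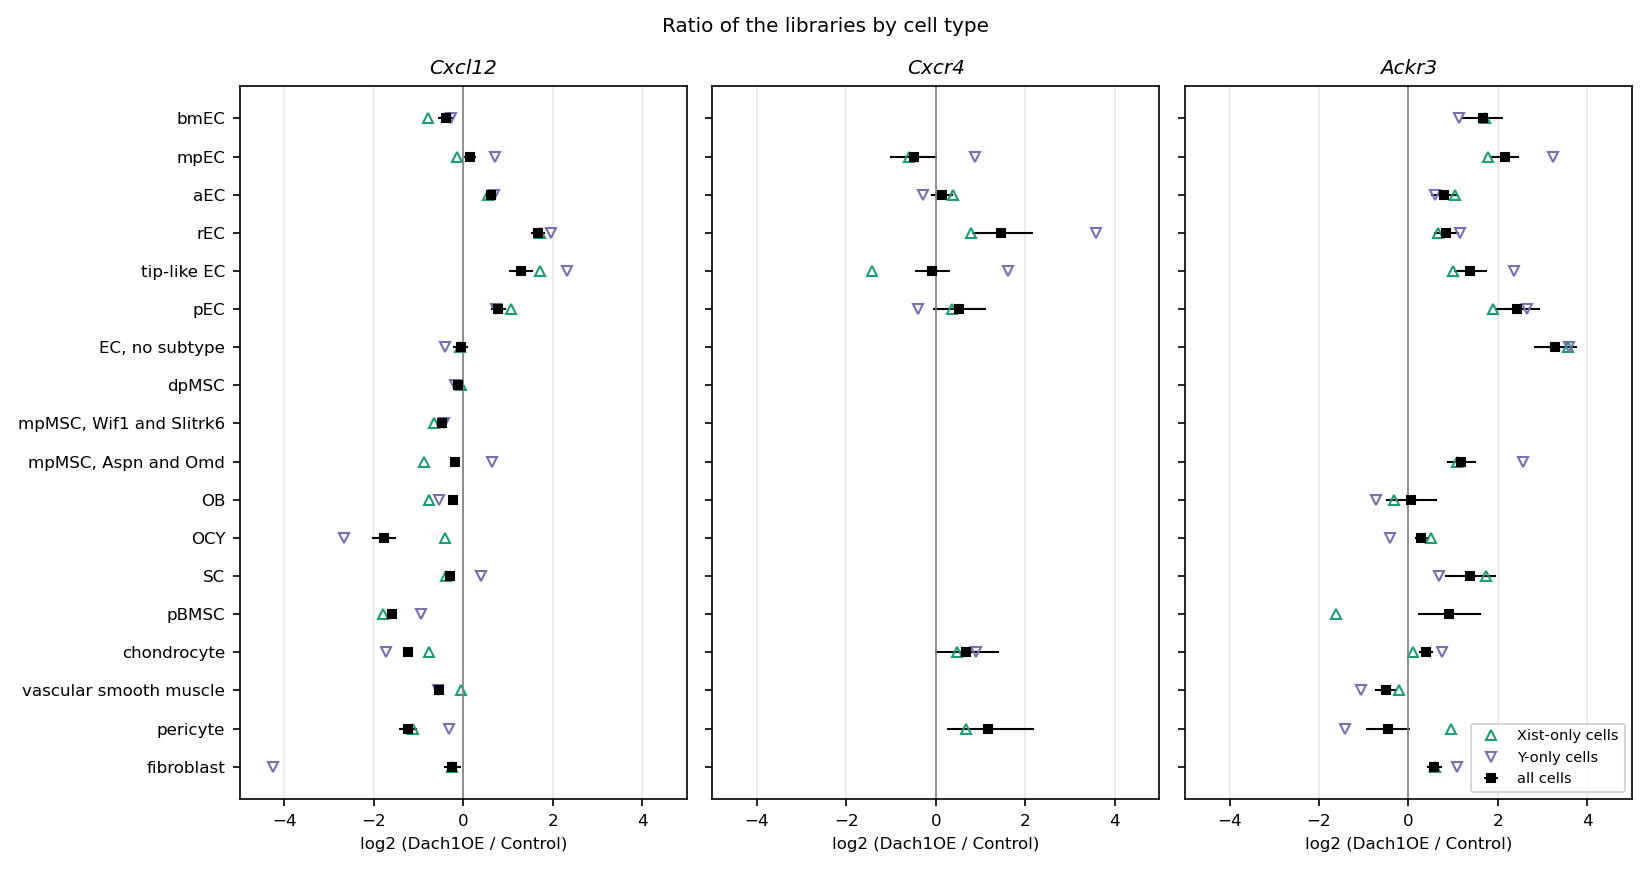
Log2 ratio of the level in Dach1OE over Control for the 3 genes in gated cell types with at least 50 cells in both libraries (rows). Haematopoietic types are not drawn, nor are lymphatic and Scgb3a1-positive ECs. Black squares are all cells with 95% counting intervals, and triangles are Xist-only (upward) and Y-only (downward) cells. Types with too few UMIs carry no mark. Ackr3 lies right of 0 in all blood EC subtypes shown (0.80 to 3.28), whereas Cxcr4 in aECs and tip-like ECs lies at 0.13 and −0.08.

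A class sum can differ because its cells differ or because its subtypes take other shares. Each EC sum was therefore computed again with the levels of 1 library and the subtype shares of UMIs of the other. For Cxcr4, Control levels at Dach1OE shares gave 35.7 CPM, a log2 ratio of 1.19 to Control, while Dach1OE levels at Control shares gave 18.7, a log2 ratio of 0.25. The higher EC sum of Cxcr4 went with the larger share of arterial and tip-like cells.

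For Ackr3 the order was the reverse. Control levels at Dach1OE shares gave 43.7 CPM (log2 ratio 0.76) and Dach1OE levels at Control shares 77.6 (1.59). The first value includes a Control level of 38.5 CPM in Scgb3a1-positive ECs that rests on 5 UMIs of 1 cell and is weighted by their larger Dach1OE share. Cxcl12 lay between, with 345 (0.70) and 290 (0.45), neither of which came near the observed 1.38. With equal weights for the 7 subtypes that had at least 50 cells in both libraries, the log2 ratio was 0.79 for Cxcl12, 0.20 for Cxcr4 and 1.40 for Ackr3. Subtype names were rebuilt from markers, and a marker that itself differed between the libraries would move cells between subtypes.

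**Figure D4:**
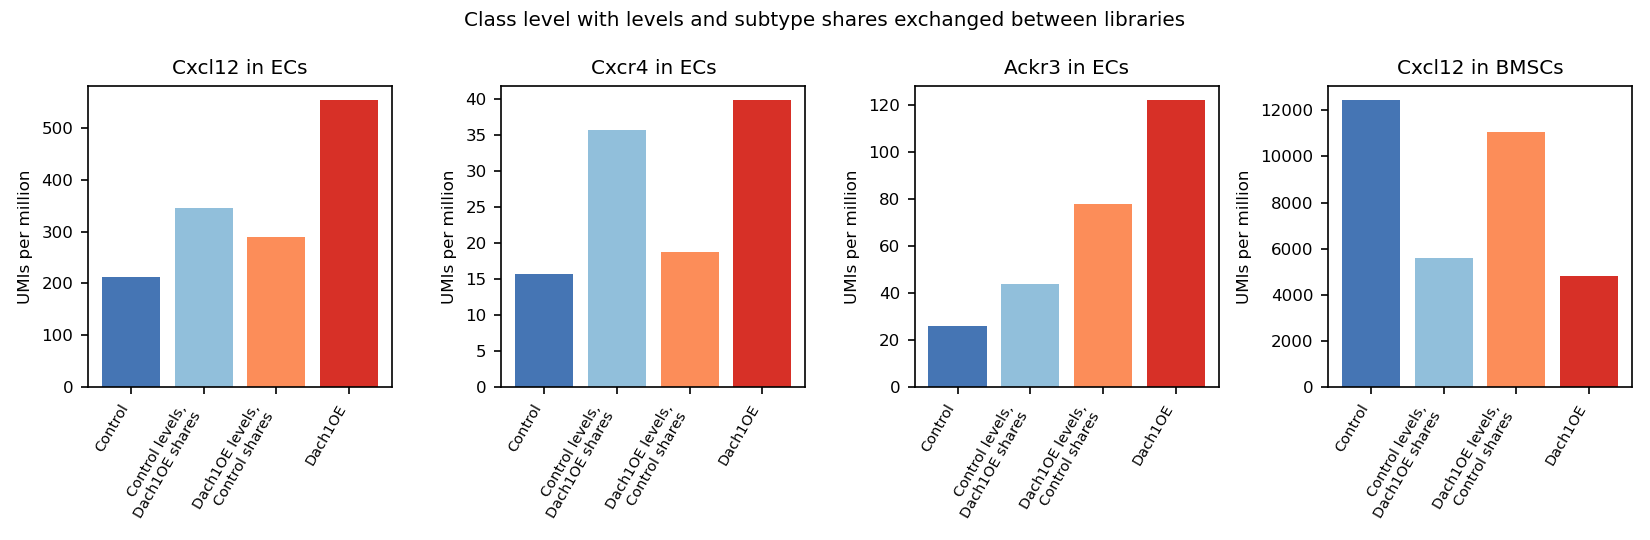
Level of each gene in all ECs, and of Cxcl12 in all BMSCs, in CPM (bars from 0): Control, Control levels at Dach1OE subtype shares, Dach1OE levels at Control shares, and Dach1OE. The second bar comes near the fourth for Cxcr4 (35.7 and 39.8) and for Cxcl12 in BMSCs (5593 and 4795), but not for Ackr3 (43.7 and 122).

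In stroma Cxcl12 went the other way. Over all BMSCs it stood at 12432 CPM in Control and 4795 in Dach1OE, a log2 ratio of −1.37 (−1.38 to −1.37), beside 298 of 12497 genes (2.38%) at least 2-fold lower and 23 (0.184%) at least 2-fold higher. The dpMSCs made up 39.4% of Control and 18.1% of Dach1OE BMSCs and OBs 25.8% and 42.7%. The level inside dpMSCs differed by only −0.12 (−0.13 to −0.11), or a fold of 0.92. Control levels at Dach1OE shares gave 5593 CPM, a log2 ratio of −1.15, against −0.17 for the reverse exchange. The share of dpMSCs among captured cells moved with the BMSC sum, and a share in these tables also depends on digestion and depletion, whose part was not tested.

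Metaphyseal stroma gated on Wif1 and Slitrk6 had a Cxcl12 ratio of −0.47 (−0.50 to −0.44) and proliferating BMSCs one of −1.59 (−1.66 to −1.53). In proliferating BMSCs the multiple of the dpMSC ratio was 1.04 in both libraries, but 0.67 and 0.55 with the second reference, so nothing is read from it. Ackr3 had a log2 ratio of 1.18 in mpMSCs gated on Aspn and Omd (66.2 and 150 CPM, 0.86 to 1.52), 1.37 in SCs (24.5 and 63.2, 0.81 to 1.95), 0.29 in OCYs (0.15 to 0.44, but 0.50 and −0.41 in the sex sets) and 0.58 in fibroblasts (0.42 to 0.74). Cxcr4 in SCs was counted with 4 UMIs in Control and 34 in Dach1OE, a ratio of 2.68 (1.19 to 4.63). In vascular smooth muscle Ackr3 was lower in Dach1OE, at −0.50 (−0.75 to −0.24), with −0.21 in Xist-only and −1.05 in Y-only cells.

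The source of the UMIs differed with these levels and shares. The dpMSCs held 73.1% of all Cxcl12 UMIs of Control and 58.1% of Dach1OE, while ECs held 1.51% and 8.55%. Within ECs, aECs held 29.9% of Cxcl12 UMIs in Control and 58.6% in Dach1OE, and bmECs, whose Cxcl12 was near the dpMSC ratio, 28.9% and 1.93%, so these are shares of UMIs counted and not of expression. Haematopoietic cells held 73.5% and 59.6% of the Cxcr4 UMIs and ECs 12.4% and 22.8%. For Ackr3, ECs held 17.4% and 37.3%, OCYs 16.7% and 10.6%, and fibroblasts 14.5% and 7.38%. Chondrocytes held 13.6% and 10.9% and cells of no type 22.0% and 22.5% of Ackr3. These shares follow the cells that were captured and are not shares in bone.

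**Figure D5:**
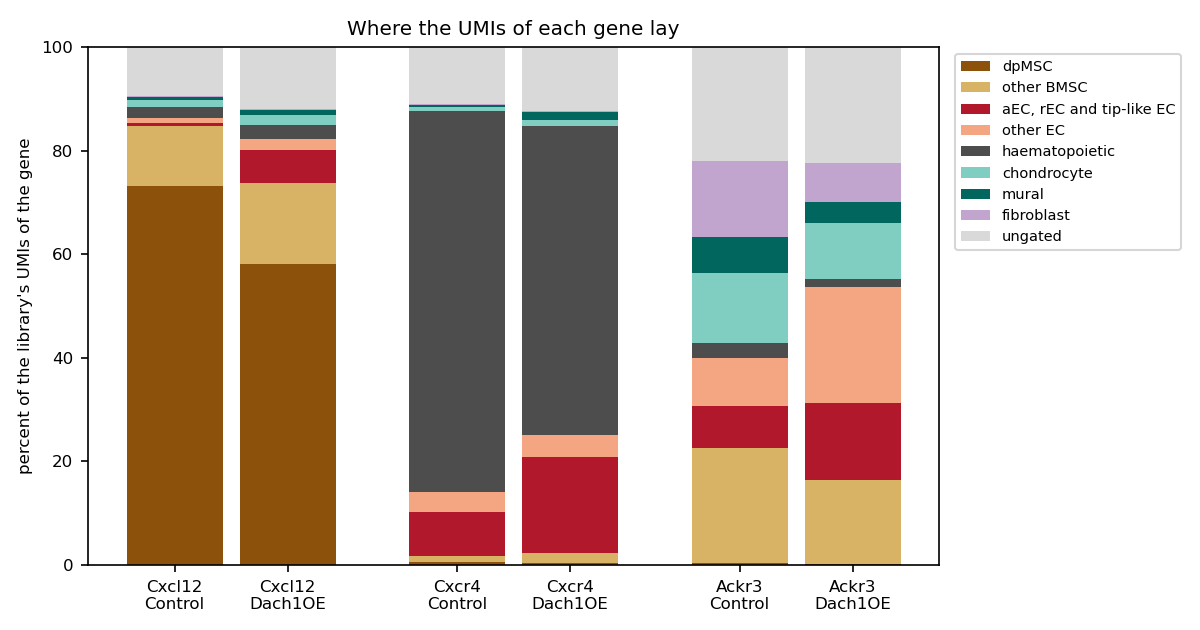
Percent of each library's UMIs of Cxcl12, Cxcr4 and Ackr3 that lay in each group of cells (stacked bars, Control beside Dach1OE). The dpMSC part of Cxcl12 is 73.1% in Control and 58.1% in Dach1OE, the haematopoietic part of Cxcr4 73.5% and 59.6%, and the EC part of Ackr3 17.4% and 37.3%.

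Dach1OE ECs could also be divided by whether a Dach1 UMI was seen after thinning to 1000 UMIs, which left 1479 positive and 6988 negative cells in the same library. A cell without a Dach1 UMI may still carry the transcript. Cxcl12 stood at 677 CPM in positive and 535 in negative ECs, a log2 ratio of 0.34 (0.24 to 0.44), and Ackr3 at 172 and 109, a ratio of 0.65 (0.44 to 0.86). Inside subtypes, the Cxcl12 ratio was 0.91 in rECs (0.67 to 1.14) and 0.05 in aECs (−0.09 to 0.19). Its interval included 0 in all other subtypes, with values of −0.37 in ECs of no subtype to 0.44 in pECs where at least 50 cells were positive. The Ackr3 ratio was 1.29 in mpECs (0.77 to 1.78) and 0.85 in ECs of no subtype (0.38 to 1.31). Its interval included 0 in aECs (0.18, −0.38 to 0.70), rECs (0.20, −0.47 to 0.83), tip-like ECs (0.68, −0.05 to 1.37), Scgb3a1-positive ECs (0.36, −0.15 to 0.84), pECs (−0.52, −1.90 to 0.63) and bmECs (−0.75, −6.12 to 1.89). Cxcr4 had a ratio of −0.18 over all ECs (−0.67 to 0.27) and −0.91 in aECs (−1.71 to −0.20), the last from 18 and 141 UMIs.

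Cxcl12 and Cxcr4 were found together in 1.80% of thinned Dach1OE ECs and in 9.86% of aECs. Over all these ECs, 8.95% of cells with Cxcl12 held Cxcr4 (7.63 to 10.4%) against 1.20% of cells without it (0.95 to 1.49%). Within aECs the values were 13.8% (11.4 to 16.5%) and 9.56% (6.44 to 13.5%), whose intervals overlap. In tip-like ECs they were 17.8% (9.84 to 28.5%) and 9.30% (5.78 to 14.0%), which overlap too. In rECs they were 8.60% (5.26 to 13.1%) and 1.53% (0.57 to 3.31%), which do not overlap. Ackr3 was found in 14.3% of aECs with Cxcl12 and 14.0% of those without.

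Other genes of the axis, 29 in the tables and listed with earlier results known, were read by the same rule. In ECs 27 had enough UMIs, of which 0 were at least 2-fold higher and 1 at least 2-fold lower in Dach1OE, beside 2.82% and 1.73% of all EC genes. Their median log2 ratio was −0.15 beside 0.04 for all EC genes. The 1 gene was Dpp4, the protease that cuts and inactivates CXCL12, at 17.3 and 6.58 CPM (−1.40, −1.65 to −1.15), and at 24.4 and 14.6 in bmECs. Of the atypical receptors, Ackr1 of venous and sinusoidal vessels had 697 and 375 CPM in ECs (−0.89) and Gpr182, another scavenger of chemokines, 478 and 362 (−0.40). In bmECs alone Ackr1 had 1076 and 871 and Gpr182 636 and 522. Ackr2 had 30.0 and 32.4 in ECs (0.11) and Ackr4 4.21 and 3.52 (−0.26). Arrb1, which encodes an arrestin, had a ratio of −0.02. Of the 27 genes, 11 had a ratio above 0. The highest were Kitl, the gene of stem cell factor, with 69.4 and 111 CPM (0.68), Foxc1 (0.45), Gnai2 (0.39) and Mif (0.38).

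In BMSCs 25 of these genes had enough UMIs, with 0 higher and 4 lower by at least 2-fold, beside 0.184% and 2.38% of all BMSC genes. Their median was −0.43 beside −0.18 for all BMSC genes. Stem cell factor Kitl had 511 and 185 CPM (−1.47), interleukin Il7 69.2 and 26.6 (−1.38), Epas1, a hypoxia-inducible factor gene with 507 and 538 CPM in ECs, 204 and 94.0 (−1.12) and the transcription factor Ebf1 299 and 149 (−1.0). In dpMSCs alone the pairs were 1703 and 1393 for Kitl, 229 and 206 for Il7, 614 and 523 for Epas1 and 756 and 675 for Ebf1, each pair closer together than in the BMSC sum.

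Genes whose levels followed those of the members most closely were sought over 46 points, 23 cell types in both libraries, among 11412 genes, with Spearman's rho as the measure. The points of a library share its depth and free RNA, and the values are descriptions. Nearest to Cxcl12 were Il7 (0.81), Esm1 (0.80), Col8a1, Tmem178 and Cd83 (0.79 each), of which Esm1 and Col8a1 were gate genes. Nearest to Cxcr4 were Ptma and Lgals9 (0.88) and Ddx10, Gsto1 and Ankrd13a (0.86 to 0.87). Nearest to Ackr3 were Pls3, Plekha1 and Col15a1 (0.80), Tacc2 (0.77) and Dock9 (0.76). The members themselves were hardly alike, with 0.15 between Cxcl12 and Cxcr4, 0.08 between Cxcl12 and Ackr3 and −0.17 between both receptors.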

How the data were processed

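The deposited counts came, per the file headers and the submitters' processing notes, from version 1.11 of the BD Rhapsody WTA Analysis Pipeline on the mouse genome mm10 (GRCm38). The study's methods name another version. The counts are UMIs per gene and cell after recursive substitution error correction, which merges identifiers that differ by sequencing errors, and they are not normalized. Intronic reads were counted, and the strand setting is not given in the sources used here. Genes are called by the symbols of the tables.

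The cell filter was that of the study's methods, with 500 to 6000 genes per cell and mitochondrial UMIs below 25%. ECs had at least 5 of 10 EC genes and no other marker list over 50% detected. Other cells took the type with the highest mean z score, capped at 5, of log counts per 10000, with a margin of 0.3 over other classes and at least 2 markers. EC subtypes were scored likewise, and cycling cells had at least 3 of 8 cycling genes. Lists for plasma cells and plasmacytoid dendritic cells were not used. The tables used here carry no cell annotation, so names were rebuilt, and details of the gate were settled after the data were seen. The genes, lists and comparisons were chosen with earlier results of these data known. The genes named are the 3 members in every gated type, the axis genes that differed at least 2-fold, and the 5 nearest genes of each member. Nearness was Spearman's rho on log2 levels with a pseudocount of 1 among genes reaching 20 CPM. The fixed rule for the axis list names only genes past 2-fold, so axis genes quoted in ECs other than Dpp4 lie outside it. In addition, Flt4, Sox17, Hey1 and Edn1 are check genes kept out of the gate, and Dach1 is the transgene. Lepr, Lpl, Ebf3, Gdpd2, Gas6, Bmx, C1qtnf9, Dmp1, Mcpt8 and the 5 dpMSC reference genes are gate genes. Which of the check and gate genes to quote was chosen after their values were seen.

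UMIs were summed per library and type, and ratios were computed in Python 3.11.15 with scipy 1.17.1. Genes needed 100 UMIs over both libraries to be counted among all genes, and a 2-fold difference was the call. Cells were thinned to 1000 UMIs for shares of cells, with shallower cells left out. The study's removal of cells with Ptprc was not repeated, and doublets were kept. Scrublet (scanpy 1.11.5) marked 6.53% of Control and 6.60% of Dach1OE cells. With 1 library per group no p-value was computed. The script for the ratios was tested on simulated data. Alternatives were raw UMIs, stricter filters, TMM scaling (edgeR 4.0.16 under R 4.3.3), means over cells, thinned counts, no doublets, a wider margin of the gate, either sex, and equal weights of the subtypes. Added after seeing the data were leaving out shared barcodes, ECs without UMIs of the dpMSC genes, exchanged shares, a second dpMSC reference (the 6 genes outside the gates with at least 200 CPM in dpMSCs and the highest level there over the highest level in ECs, haematopoietic, chondrocyte or mural cells), and the subtype values under 3 of these settings.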

Additional observations from a re-analysis of the deposited data

Results flagged for a closer look

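Apart from the values of cells that passed no gate, every difference listed here compares log2 ratios of Dach1OE over Control that point opposite ways. None of these differences was tested. In cells of either sex, with 1 mouse per library taken to stand behind each value, Cxcl12 in mpMSCs gated on Aspn and Omd had −0.88 in Xist-only and 0.64 in Y-only cells. Cxcl12 in septoclasts had −0.39 and 0.39, and in the remaining haematopoietic cells 1.89 and −2.24, where 1 cell held 41.0% of the UMIs of Control and 42.4% of those of Dach1OE. Cxcr4 in tip-like ECs had −1.43 in Xist-only and 1.61 in Y-only cells, from 54 and 31 and from 8 and 33 UMIs, so that its ratio over all cells of −0.081 joins opposite values. Ackr3 in osteocytes had 0.50 and −0.41.

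Between classes of cells, Cxcl12 had 1.38 in ECs but −1.37 in BMSCs, −0.98 in haematopoietic cells, −1.25 in chondrocytes and −0.74 in mural cells. Cxcl12 in haematopoietic cells did not exceed the level that comes with dpMSC RNA (multiples 0.94 and 0.94), and in chondrocytes, with multiples of 0.73 and 0.49, that measure does not settle its source. For Cxcr4 the value was 1.34 in ECs, 0.76 in BMSCs and 1.38 in mural cells and −0.079 in haematopoietic cells. Ackr3 had 2.24 in ECs, 0.62 in BMSCs and 0.40 in chondrocytes, but −0.53 in mural cells, where Xist-only cells had 0.12 and Y-only cells −1.33. Cells that passed no gate, which enter no comparison above, had 0.26 for Cxcr4 and 0.82 for Ackr3.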

How the results depend on the processing

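No paired analysis was possible because each group is 1 library whose pooled mice carry no labels, so no labelled replicate could be left out; cells split by sex, a split made from the data, are given as the sex sets. None of the 6 main log2 ratios changed its sign, and those that left their counting interval were these; the cause was not tested. Cxcl12 in ECs (1.38) had 1.52 with under 10% mitochondrial UMIs, 1.27 as a mean over cells, 1.27 with thinned counts, 1.51 without doublets, 1.16 in Xist-only and 1.70 in Y-only cells, 0.79 with equal weights, 0.70 with Control levels at Dach1OE shares and 1.58 in cells with no UMI of the 5 dpMSC genes. Cxcr4 in ECs (1.34) had 1.18 under the wider margin, 1.08 and 1.77 in the sex sets and 0.20 with equal weights. Ackr3 in ECs (2.24) had 1.97 and 2.69 in the sex sets, 1.40 with equal weights and 0.76 with Control levels at Dach1OE shares. Cxcl12 in BMSCs (−1.37) had −1.39 with raw UMIs, −1.39 with at least 1000 genes, −1.46 with under 10% mitochondrial UMIs, −1.18 with TMM, −1.13 as a mean over cells, −1.14 thinned, −1.10 and −1.59 in the sex sets, −0.27 with equal weights and −1.15 with Control levels at Dach1OE shares. Cxcl12 in dpMSCs (−0.12) had −0.094 with under 10% mitochondrial UMIs, −0.13 with TMM, as a mean, thinned and without doublets, −0.10 under the wider margin and −0.046 and −0.18 in the sex sets. Cxcl12 in aECs over bmECs of Control (3.72) had 3.84 with under 10% mitochondrial UMIs, 3.61 as a mean, 3.62 thinned, 4.13 under the wider margin, 3.53 and 3.86 in the sex sets and 4.03 in cells with no UMI of the dpMSC genes. Inside subtypes, Cxcl12 in bmECs turned from −0.38 to 0.014 and Cxcr4 in aECs from 0.13 to −0.20 under the wider margin, where Ackr3 in mpECs had 1.39 in place of 2.16 and Cxcl12 in mpECs 0.0060 in place of 0.15, against 0.32 without doublets and 0.55 with no UMI of the dpMSC genes. With 6 dpMSC genes that no gate used as reference, the Cxcl12 multiple of the dpMSC ratio fell below 1 in several types that had been above 1 by their interval. These were ECs of no subtype of Control (0.62 in place of 1.32), vascular smooth muscle of Dach1OE (0.997 in place of 1.76), mpMSCs gated on Wif1 and Slitrk6 (0.86 and 0.84) or on Aspn and Omd (0.80 and 0.85), SCs (0.28 in both) and OBs of Dach1OE (0.10). Types whose first interval had included 1 are not listed.

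The libraries have no replicate, so mouse, preparation and genotype cannot be told apart. Sums of few UMIs, such as Cxcr4 in bmECs (19 and 7 UMIs), give wide intervals.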
